A study of Mus musculus with 11 samples.

Results

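The antimicrobial genes Defb14, Defb1, Defb3, Defb4 and Slpi were measured by RNA sequencing in epithelium from the gingiva of langerin-DTR mice that had received diphtheria toxin (DT) or PBS early in life. They were chosen by name, as 4 genes of the beta-defensin family and 1 inhibitor of proteases. They are 5 of the 19170 genes for which the table of normalized counts gives values, out of 55414 genes listed, and each has a value in every mouse. After DT 0 of the 5 passed the threshold of an adjusted p of 0.1 in limma, which 0.558% of all genes passed, while the levels of Defb1, Defb4 and Slpi varied together from mouse to mouse. Other genes followed Defb1, Defb4 and Slpi more closely than these followed each other, such as Mrpl14 with Slpi (r = 0.98). Within the DT mice Slpi had r = 0.52 with Defb4 and r = 0.48 with Defb1. Defb14 had the largest difference of the 5, 1.28-fold higher in the DT-treated mice.

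All 11 mice carried the langerin-DTR allele, in which langerin drives the receptor for the toxin, and DT therefore kills any cell that expresses langerin, the Langerhans cells of the epithelium among them. Injections of PBS (5 mice) or DT (6 mice) fell on postnatal days 17, 24 and 31, and the tissue was taken from adults aged 8 weeks. The study describes Langerhans cells as back at their usual frequency by that age, so the groups differ in a past depletion. Mice without the allele were not analysed here, and an effect of the toxin itself cannot be told apart from the loss of langerin-expressing cells. The label of the DT mice calls them depleted, yet Cd207, which encodes langerin, was low in both groups at collection. Its normalized counts from PBS 1 to PBS 5 were 15.8, 18.5, 32.2, 10.0 and 43.0, and they lay between 15.8 and 21.6 with a median of 18.3 in the DT mice.

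Beta-defensins are short cationic peptides that epithelial cells secrete onto mucosal surfaces, where they damage the membranes of bacteria and fungi and can attract immune cells through chemokine receptors. Some members are made at a steady level, and others are induced by microbial products and cytokines such as IL-17, IL-22 and the IL-1 family. Slpi, the secretory leukocyte protease inhibitor, is found in saliva and mucosal secretions, where it binds neutrophil elastase and related serine proteases and has antimicrobial activity of its own.

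The coding sequences show what the 5 genes have in common and how far they could be confused in counting. Each defensin is written from start to stop codon, and Slpi from base 106 of its 396 coding bases to the stop, with the in-frame codons for cysteine (TGC or TGT) in capitals, because paired cysteines hold both kinds of protein in shape. The sequences are those of GENCODE mouse release M21 on the GRCm38 build, and the transcript with the longest coding sequence is shown for Slpi.
Defb14: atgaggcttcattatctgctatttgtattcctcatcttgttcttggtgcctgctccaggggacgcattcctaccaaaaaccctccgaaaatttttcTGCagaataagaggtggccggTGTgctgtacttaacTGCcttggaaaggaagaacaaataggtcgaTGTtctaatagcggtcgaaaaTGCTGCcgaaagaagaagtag
Defb1: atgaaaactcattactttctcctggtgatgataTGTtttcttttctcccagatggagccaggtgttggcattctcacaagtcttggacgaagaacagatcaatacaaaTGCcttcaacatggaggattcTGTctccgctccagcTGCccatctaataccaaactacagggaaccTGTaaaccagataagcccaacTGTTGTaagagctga
Defb3: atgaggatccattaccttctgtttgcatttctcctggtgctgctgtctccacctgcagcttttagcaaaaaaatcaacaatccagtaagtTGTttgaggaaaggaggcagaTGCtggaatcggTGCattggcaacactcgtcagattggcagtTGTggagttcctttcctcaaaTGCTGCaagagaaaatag
Defb4: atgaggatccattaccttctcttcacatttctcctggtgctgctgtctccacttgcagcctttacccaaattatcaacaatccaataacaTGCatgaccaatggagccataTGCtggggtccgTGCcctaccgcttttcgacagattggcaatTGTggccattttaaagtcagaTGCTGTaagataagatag
Slpi: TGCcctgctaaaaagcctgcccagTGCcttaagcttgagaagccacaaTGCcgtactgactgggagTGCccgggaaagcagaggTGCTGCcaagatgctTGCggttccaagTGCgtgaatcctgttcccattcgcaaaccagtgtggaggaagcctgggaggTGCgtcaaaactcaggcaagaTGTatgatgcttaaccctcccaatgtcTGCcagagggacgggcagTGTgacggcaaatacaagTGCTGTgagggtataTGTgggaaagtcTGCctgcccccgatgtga
Defb14, Defb3 and Defb4 each hold 6 cysteine codons, and Defb1 holds 7, of which the first lies at codon 12 near the start of the sequence. From the last 6 cysteine codons of each defensin the spacing can be read: 6 codons lie between the first and the second, and the last pair is adjacent. In the next gap lie 4 codons in Defb14 and Defb1 and 3 codons in Defb3 and Defb4. Slpi, which is not related to the defensins, has 17 cysteine codons among 131 codons, 16 of them in the stretch shown.

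Defb3 and Defb4 were the closest pair of the 5, with 75.9% identical bases over the aligned coding sequences and a longest shared run of 33 bases in their transcripts. Defb14 was identical to the other 3 defensins at 50.8% to 59.5% of aligned positions, gaps included. Slpi was identical to the 4 defensins at between 38.9% and 41.4% of aligned positions. The 4 defensin genes lie on chromosome 8 of GRCm38, on the plus strand and with 2 exons each. Defb14 (ENSMUSG00000046354) spans chr8:19194357-19195212, Defb4 (ENSMUSG00000059230) chr8:19198706-19201545, Defb3 (ENSMUSG00000039775) chr8:19293360-19295291 and Defb1 (ENSMUSG00000044748) chr8:21776599-21795185. Slpi (ENSMUSG00000017002) lies on the minus strand of chromosome 2, chr2:164354070-164389095, with 3 annotated transcripts. How reads that fit more than 1 of these genes were counted is not given in the sources used here, so the values of Defb3 and Defb4 carry that uncertainty.

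The libraries held from 17509328 to 24325513 reads counted on genes, with medians of 20164510 in the PBS group and 20859075.5 in the DT group. All 10 marker genes of oral keratinocytes had values, and their summed level lay between 2741181 and 2877710 normalized counts in the PBS mice and between 2822310 and 3099189 in the DT mice. The 9 markers of Langerhans cells summed to 2957 to 6454 in the PBS mice and 2246 to 4067 in the DT mice. Cd74 carried 30.0% of that sum, while Cd207 had a mean of only 20.9 normalized counts. Of the 9 markers 0 passed the threshold (3 at an unadjusted p under 0.05 in limma, against 11.5% of all genes). PBS 5 had the lowest weight of the 11 mice, 0.497, when limma weighted each library by its fit. PBS 3 and PBS 4 also had low weights, 0.6065 and 0.711, while every other mouse was at 1.03 or more. PBS 5 is therefore named beside each result that rests on it.

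The 5 genes were at very different levels, which were compared per kilobase of exon. Slpi was the most abundant, with 31454 ± 5386 normalized counts per kilobase (SD, n = 11 mice). Defb4, the mouse gene regarded as closest to the inducible human beta-defensin of skin, followed at 11911 ± 1210. Defb1, the counterpart of the steadily made human beta-defensin of many epithelia, was at 1677 ± 189. Defb14, a defensin that attracts cells through Ccr6, was at 1005 ± 196, and Defb3 was the lowest at 258 ± 113. Slpi exceeded Defb4 in 11 of 11 mice by a ratio of 2.31 to 3.10, and Defb4 exceeded Defb1 in 11 of 11 mice by 6.84 to 8.26. Defb1 also exceeded Defb14 in each of the 11 mice, by 1.32 to 2.10, although the ranges of both genes over the mice overlapped. The annotated model of Defb14 holds only its 204 bases of coding length, while that of Defb1 has 872 bases, so the size of the gap between them depends on the annotated lengths. The values of Slpi use the 1180 bases that its 3 transcripts cover together, and reach 42369.8 per kilobase with its longest transcript of 876 bases. The labels and the reporting summary of the paper name a stranded mRNA kit. For the processing of reads, however, the methods of the paper refer to the guide of a protocol that reads the 3′ ends of transcripts. If the reads came from 3′ ends, a division by length would not apply and the ratios above would not hold. Without division the order of the genes was the same. The mean normalized counts were 37116 for Slpi, 5407 for Defb4, 1462 for Defb1, 205 for Defb14 and 70.8 for Defb3. Those counts still depend on the annotated models, and that of Defb14 holds no bases beyond its coding sequence.

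**Figure D1:**
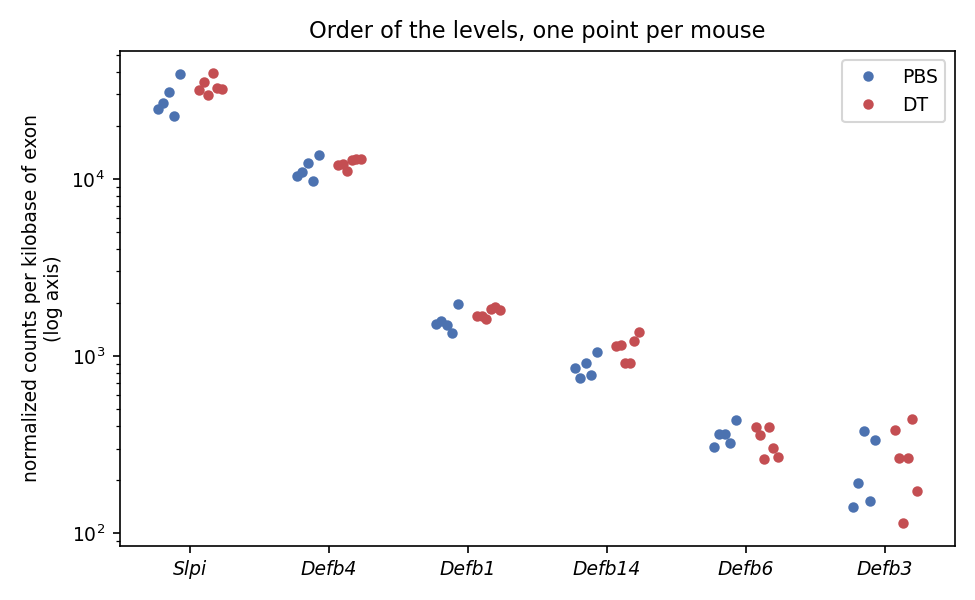
Normalized counts per kilobase of exon on a log axis, 1 point per mouse, with PBS mice in blue and DT mice in red, for the 5 genes and for Defb6, the other beta-defensin gene with values. Slpi, Defb4, Defb1 and Defb14 descend in that order in every mouse, and the points of Defb6 and Defb3 overlap.

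The annotated mouse beta-defensin family is large, and most of it gave no values in the gingival epithelium. Of 40 further beta-defensin names listed in the table, 39 have no value, and Defb6 alone has one. Defb6, a close relative of Defb4 with 78.6% identical coding bases, was at 342 ± 55.3 normalized counts per kilobase (SD, n = 11 mice). It exceeded Defb3 in 9 of 11 mice, with a ratio between 0.685 and 2.31, so that the order of these neighbours is not fixed over the mice.

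The comparison of DT with PBS asks whether an early loss of Langerhans cells is followed by other levels of these epithelial defences in the adult. From PBS 1 to PBS 5, the normalized counts of Defb14 were 174, 153, 186, 159 and 216. In the DT mice it lay between 186 and 280, with a median of 234. The DT mice were higher as a group, with 4 of 6 above every PBS mouse, but DT 3 and DT 4 lay within the range of the controls. The means were 178 ± 25.1 (SD, n = 5) and 228 ± 36.2 (SD, n = 6), a log2 fold change of 0.35 (SE 0.12, 95% interval 0.10 to 0.60), which is 1.28-fold with an interval of 1.07 to 1.52. Defb14 had an unadjusted p of 0.00867 and an adjusted p of 0.258 over 19170 genes in limma. It was counted from 154 to 320 reads per mouse, and its coefficient of variation over the mice was 19.5%, against 6.97% from counting alone.

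Slpi, the protease inhibitor, was at 29282, 31638, 36549, 26583 and 46301 normalized counts from PBS 1 to PBS 5. The DT mice lay between 35355 and 46648 with a median of 38406. PBS 1, PBS 2 and PBS 4 were below every DT mouse, whereas PBS 5 was above all of them but DT 4. The means were 34070.4 ± 7756 in the PBS group and 39654 ± 3957 in the DT group (SD, n = 5 and n = 6), a log2 fold change of 0.24 (95% interval -0.01 to 0.49, adjusted p = 0.446 in limma). Counting error was only 0.519% of the level of Slpi, so counting made up little of its 17.1% variation over all mice. With a single library per mouse, that variation holds the group difference, differences between mice and library preparation together.

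Defb1 was at 1324, 1371, 1302, 1181 and 1717 normalized counts from PBS 1 to PBS 5 and lay between 1406 and 1654 in the DT mice, with a median of 1525. Of the 5 PBS mice 4 were lower than every DT mouse, and PBS 5 was the highest of all 11 mice. The log2 fold change of Defb1 was 0.16 (95% interval -0.01 to 0.33, adjusted p = 0.449 in limma). Defb4 was at 4732, 4973, 5599, 4425 and 6208 normalized counts from PBS 1 to PBS 5, and between 5046 and 5887 with a median of 5644 after DT. Its groups overlapped further, with PBS 3 among the DT mice and PBS 5 above them. The log2 fold change of Defb4 was 0.12 (95% interval -0.05 to 0.28, adjusted p = 0.592 in limma).

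Defb3, a gene that is inducible by bacteria in other epithelia, was at 38.5, 52.5, 104, 41.9 and 92.3 normalized counts from PBS 1 to PBS 5. The DT mice ranged from 31.2 to 121 with a median of 72.8, and so reached both below and above all PBS mice. Its log2 fold change was 0.17 with a 95% interval from -0.53 to 0.87 (adjusted p = 0.888 in limma), so a fall to 0.692-fold and a rise to 1.83-fold both lie within the interval. Defb3 varied most between mice, with a coefficient of variation of 43.7% against 11.9% from counting, at 31 to 123 reads per mouse. Defb6 differed by -0.12 on the log2 scale (adjusted p = 0.794 in limma).

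**Figure D2:**
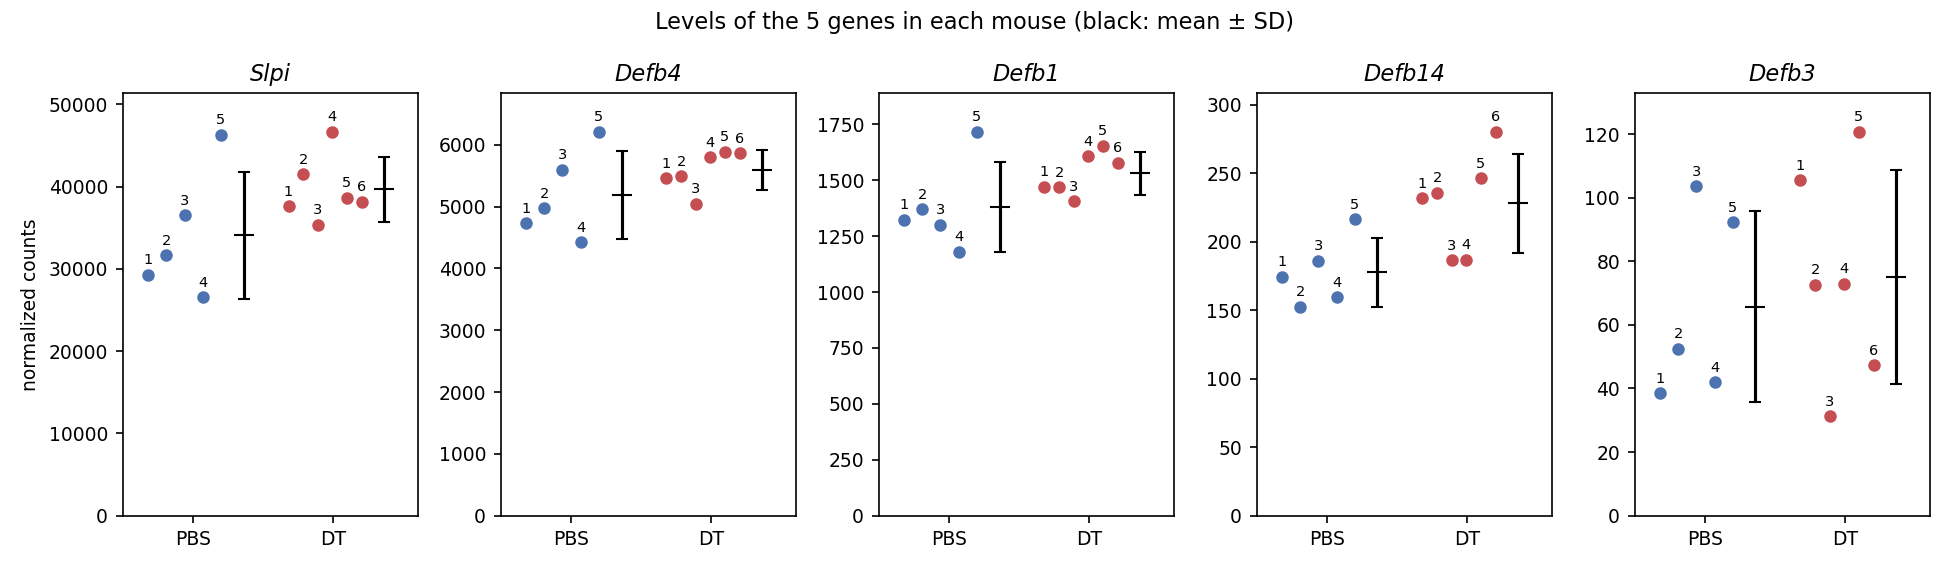
Normalized counts of each gene in each mouse, on linear axes that start at 0, with the number of the mouse beside each point and the mean ± SD of the group in black (PBS in blue, n = 5; DT in red, n = 6). PBS 5 is the highest PBS mouse for Slpi, Defb4, Defb1 and Defb14, and no gene separates the groups.

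Of the 5 genes, 0 passed the threshold, against 0.558% of all genes tested (107 of 19170, 60 higher and 47 lower after DT). At an unadjusted p under 0.05, limma called 1 of the 5, Defb14, against 11.5% of all genes, and 5.31% of all genes in the direction of Defb14. In no case were the groups free of overlap, which held for 1.65% of all genes. All 5 differences were positive, which was so for 47.3% of all genes and for 54.3% of the 11046 genes whose mean was 50 normalized counts or more. The 5 genes varied together over the same mice, so their shared sign does not count as 5 separate observations. The median log2 fold change of the 5 genes was 0.17, against -0.01 for all genes.

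The result for Defb1 and Slpi rested on PBS 5. Without PBS 5, the log2 fold change of Defb1 was 0.24 (adjusted p = 0.085 in limma) and that of Slpi 0.36 (adjusted p = 0.0951), both past the threshold, among 259 genes (1.35%) then called, 155 of them higher (0.809%). The log2 fold change of Defb14 was 0.43 without PBS 5 and missed the threshold (adjusted p = 0.116 in limma). Leaving out any other mouse brought none of the 5 genes past it. In bulk epithelium a change in the share of a cell type cannot be told apart from a change in RNA per cell.

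Immediate early genes, which respond within minutes to handling and dissociation of tissue as well as to signals in the animal, were higher in the DT mice. Of 10 on the list 8 passed the threshold, all higher, against 0.313% of all genes called higher. The median log2 fold change over the list was 1.35. Fos, Jun, Junb, Atf3 and Egr1 were among them, Egr1 with a highest adjusted p of 0.117 in limma when a mouse was left out. None of the 8 passed when mice were blocked by the number in their library name (adjusted p = 0.11 to 0.208 in limma). The summed level of the list was 23903 to 63479.5 normalized counts in the PBS mice and 66858 to 107465 in the DT mice. The part of these genes in the differences of Defb14, Slpi and Defb1 was not tested. All 9 markers of Langerhans cells had negative log2 fold changes with a median of -0.35, against -0.01 for all genes, and their part was not tested either. Cd207 among them differed by -0.19 (adjusted p = 0.853 in limma). Of the 10 neutrophil markers, Ly6g, Elane, Mpo, Camp, Retnlg and Mmp8 had no value, and the remaining 4 summed to 915 to 2235 in the PBS mice and 346 to 2051 in the DT mice. Ltf, which glands also express, carried 95.9% of that sum, while Ngp and Csf3r had means under 5 normalized counts. Salivary glands also make Slpi, and 10 of their 14 markers had values. These summed to 189 to 304 in the PBS mice and 117 to 354 in the DT mice, with overlapping ranges. Muc5b carried 57.0% of that sum and differed by -0.65 (adjusted p = 0.375 in limma). It was the 1 gland marker at an unadjusted p under 0.05 in limma, against 11.5% of all genes. The part of gland tissue in the level of Slpi was not tested.

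The 5 genes were then compared with each other across mice. PBS 1, PBS 2, PBS 4 and DT 3 were below the mean of the 11 mice for all 5 genes, and PBS 5, DT 1, DT 2 and DT 5 were above it for all 5. The remaining 3 mice were mixed, with DT 6 high in Defb14 and low in Defb3, DT 4 low in Defb14 alone, and PBS 3 high only in Defb3 and Defb4. Each of the 10 pairs of genes had a positive Pearson r.

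**Figure D3:**
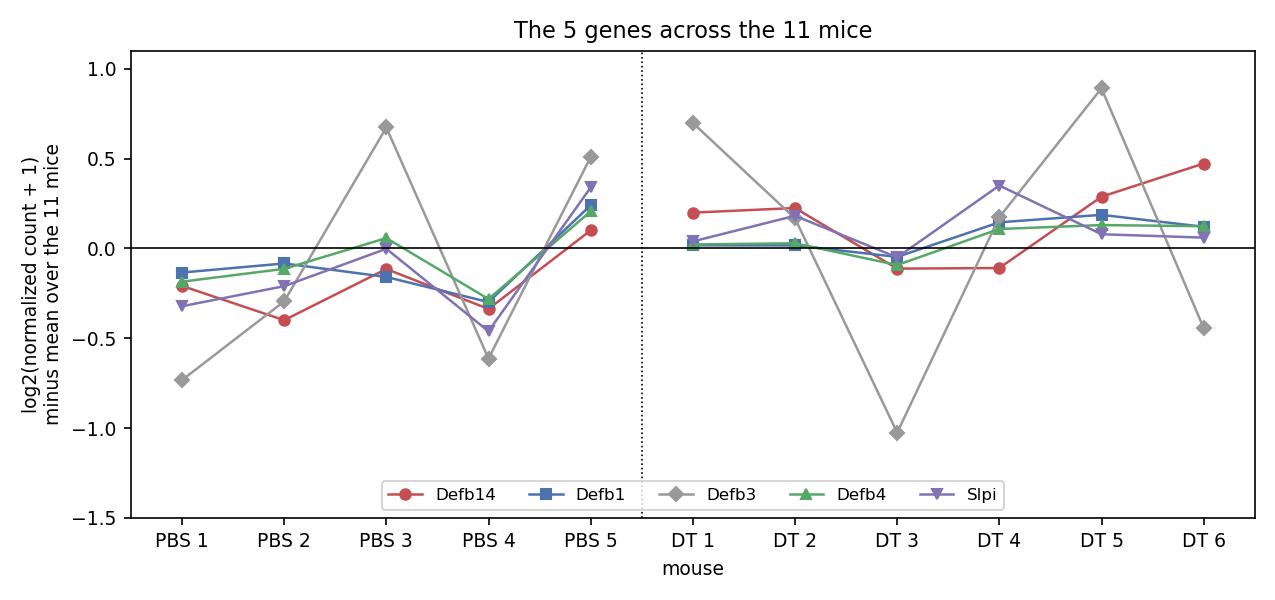
Level of each gene in each mouse as log2(normalized count + 1) minus the mean of that gene over the 11 mice, 1 line per gene within each group, with PBS mice left of the dotted line. Defb1, Defb4 and Slpi run close together, with PBS 4 lowest and PBS 5 high, while Defb3 spans from -1.03 in DT 3 to 0.89 in DT 5.

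Defb4 and Slpi were the pair that varied most closely together, with r = 0.92 and Spearman's rho = 0.85 over 11 mice (permutation test, adjusted p = 0.0006 and 0.00613 over the 10 pairs). Without the mice farthest from the median of Defb4, PBS 1 and PBS 4, r was 0.79, and it was 0.52 within the 6 DT mice. Defb1 and Defb4 had r = 0.89 and rho = 0.85 (permutation test, adjusted p = 0.0019 and 0.00613), with r = 0.75 without PBS 4 and PBS 5 and r = 0.94 within the DT mice. Defb1 and Slpi had r = 0.86 and rho = 0.85 (permutation test, adjusted p = 0.00247 and 0.00613), with 0.71 without PBS 4 and PBS 5 and 0.48 within the DT mice. The 5 PBS mice are too few for a correlation of their own.

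Defb14 followed these genes less closely. Its r with Defb4 was 0.72 and rho was 0.74 (permutation test, adjusted p = 0.0331 and 0.026), with 0.67 without DT 5 and DT 6 and 0.55 within the DT mice. With Defb1 the r of Defb14 was 0.69 and rho was 0.74 (permutation test, adjusted p = 0.0354 and 0.026), with 0.61 without DT 5 and DT 6 and 0.35 within the DT mice. After the mean of each group was subtracted, the r of Defb14 with Defb1 was 0.54 and no longer passed (permutation test, adjusted p = 0.113). With Slpi the r of Defb14 was 0.58 and rho was 0.70 (permutation test, adjusted p = 0.0807 and 0.0343), with 0.69 without DT 5 and DT 6, and within the DT mice r was -0.24, the only negative value of the 10 pairs there. Defb3 passed with Defb4 alone by Pearson's r, which was 0.69 with rho = 0.63 (permutation test, adjusted p = 0.0354 and 0.0639), with 0.61 without PBS 1 and DT 3 and 0.56 within the DT mice.

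In all, 6 of the 10 pairs passed an adjusted p of 0.05 by Pearson's r and 6 by Spearman's rho. The 3 pairs among Defb1, Defb4 and Slpi also passed whichever single mouse was left out, whereas the count of pairs fell to 3 without PBS 1, PBS 2, PBS 4, DT 3 or DT 5. Many other genes shared the pattern, as a count over the 11046 genes whose mean was 50 normalized counts or more shows. For the pair of Defb4 and Slpi, 0.579% of these genes were at least as like Defb4 and 0.697% at least as like Slpi. The shares were 0.923% and 1.43% for Defb1 and Defb4, and 1.35% and 2.78% for Defb1 and Slpi. They were larger for the other pairs that passed, with 2.06% and 10.4% for Defb14 and Defb4, 3.09% and 7.82% for Defb14 and Defb1, and 3.41% and 12.4% for Defb3 and Defb4. The genes whose levels were most like Defb1 over the 11 mice were Rps3, Rpl32, Eef1b2, Rps7 and Rack1, with r between 0.96 and 0.97. For Defb4 they were Ppp1ca, Rpl15, Rpl27a, Gpx2 and Rab8a (r = 0.96 to 0.97), and for Slpi they were Mrpl14, Mien1, Tmem40, Uqcr10 and Uchl3 (r = 0.96 to 0.98). Defb14 was most like Chic2, Gins4, Gas2l3, Sertad1 and Fig4 (r = 0.89 to 0.94), and Defb3 was most like Fabp4, S100a8, Ginm1, Dctn6 and Stom (r = 0.89 to 0.93). S100a8, which is most like Defb3 after Fabp4, encodes a subunit of calprotectin, an antimicrobial protein that binds metal ions.

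The genes that act with or on the 5 genes were read from lists of names. Among cytokines, receptors and transcription factors known to induce or regulate epithelial defensins, 31 of 32 had values and 0 passed the threshold. In limma 5 had an unadjusted p under 0.05, against 11.5% of all genes. Positive log2 fold changes were found for 21 and negative ones for 10, with a median of 0.10 against -0.01 for all genes. Differences above 0 made up 47.3% over all genes, and 54.3% where the mean reached 50 normalized counts. Il22 had no value. Hbegf, a growth factor of the EGF family that is released at wounds, came nearest with a log2 fold change of 0.71 and an adjusted p of 0.126 in limma, and 5 of 6 DT mice were above every PBS mouse. Il36b, a cytokine of the IL-1 family made by keratinocytes, differed by 0.31 (adjusted p = 0.174) and Nfkbiz, a nuclear regulator required for many IL-17 responses, by 0.35 (adjusted p = 0.29). The most abundant genes of this list, Grhl3, a transcription factor of the epidermal barrier, and Il36g, differed by 0.10 and 0.15. The lower gene of the 5 was Nod2, at -0.31 (adjusted p = 0.371 in limma). Cebpb differed by 0.23 (adjusted p = 0.352 in limma), and both are named after their values were seen. Several of these calls depended on the setting. Hbegf passed without PBS 5 or DT 3 (adjusted p = 0.067 and 0.0647 in limma), with array weights (0.0826), with the block on mouse numbers (0.0787) and with length and GC trends removed (0.0527), but not with the block on library names (0.167). Il36b passed without PBS 5 (adjusted p = 0.0184 in limma), with array weights (0.0416) and with length and GC trends removed (0.0883), and Nfkbiz without PBS 4 (0.0801).

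Of 6 receptors that beta-defensins are reported to engage, 0 passed the threshold (2 at an unadjusted p under 0.05 in limma, against 11.5% of all genes). The log2 fold changes of 5 were negative, with a median of -0.33 over the 6 and of -0.01 over all genes. Ccr6, the receptor through which Defb14 attracts cells, had the largest difference at -1.27 (adjusted p = 0.284 in limma) on a mean of 3.82 normalized counts, and is named after its value was seen. Tlr4, the receptor for bacterial lipopolysaccharide, differed by 0.22 (adjusted p = 0.318 in limma), the chemokine receptor Ccr2 by -0.48 and Tlr2 by -0.10. Of the 7 serine proteases listed as bound by Slpi, 5 had no value, Elane and Ctsg of neutrophils among them. Mcpt4 and Cela1 were counted at no more than 5 and 3 reads in any mouse, so a difference was not detectable at this depth.

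Slpi belongs to the WFDC family of protease inhibitors, of which 7 of 20 listed members had values and 0 passed the threshold. At an unadjusted p under 0.05 in limma was 1 of them, against 11.5% of all genes. Wfdc12, a further epithelial member, differed by 0.30 (adjusted p = 0.242 in limma), with 3 of 6 DT mice above every PBS mouse, and it passed without PBS 5 (0.36, adjusted p = 0.0836). Wfdc5 and Wfdc18 both differed by 0.05. Of 34 other antimicrobial genes 25 had values and 0 passed, with 12 positive and 13 negative log2 fold changes and a median of -0.01. At an unadjusted p under 0.05 in limma were 4, again against 11.5% of all genes. The 1 gene of these 4 that was lower was Bpifa1, a secreted protein of airway and gland epithelium, at -0.79 (adjusted p = 0.288 in limma), named after its value was seen. Adm, which encodes the antimicrobial peptide hormone adrenomedullin, differed by 0.82 (adjusted p = 0.196 in limma), and the cystatin Csta1, an inhibitor of cysteine proteases, by 0.30 (adjusted p = 0.196). S100a7a, the mouse relative of human psoriasin, differed by 0.25 (adjusted p = 0.264 in limma), and Cst3, the most abundant gene of that list, by 0.10. Csta1 and S100a7a passed without PBS 5 (adjusted p = 0.0378 and 0.0144 in limma), as Defb1 and Slpi did, and Adm passed without PBS 4 (0.98, adjusted p = 0.0796). With array weights Csta1 and S100a7a passed (adjusted p = 0.0517 and 0.098 in limma), and with length and GC trends removed S100a7a and Adm did (adjusted p = 0.0963 and 0.0966).

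**Figure D4:**
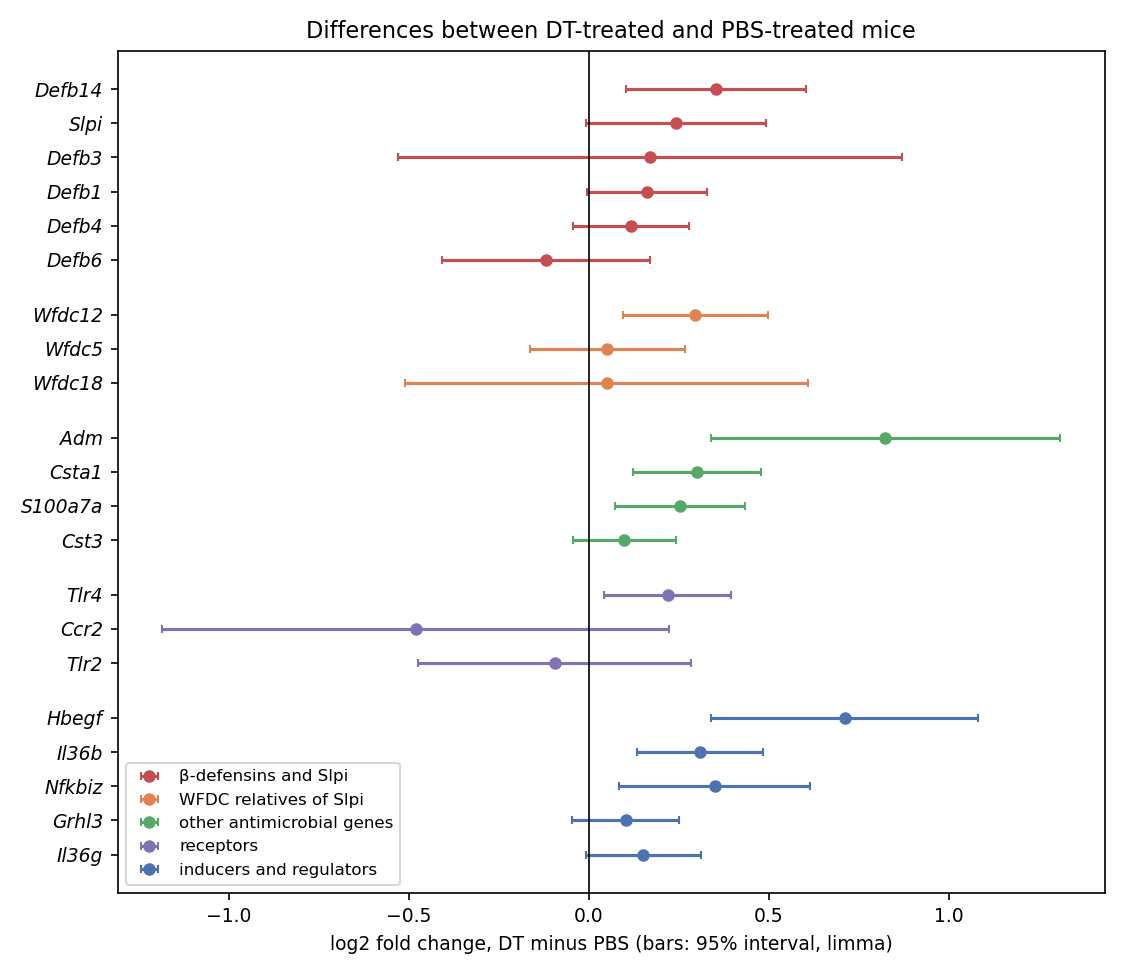
Log2 fold change of DT against PBS with its 95% interval from limma for the 5 genes and Defb6 (red), relatives of Slpi (orange), other antimicrobial genes (green), receptors (purple) and inducers and regulators (blue). The intervals of Defb14, Wfdc12, Adm, Csta1, S100a7a, Tlr4, Hbegf, Il36b and Nfkbiz lie above 0, and none of these genes passed the adjusted threshold.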

How the data were processed

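The authors sequenced poly-A selected, stranded libraries, one per mouse (5 PBS, 6 DT). The submitters' processing notes list cutadapt 2.10, TopHat2 2.1.1, HTSeq 2.01 and DESeq2 1.36.0 with GRCm39, whereas the methods of the paper name GRCm38 and the guide of a 3′ end protocol. Genes with a summed count under 10 were left out by the authors. The deposited values are a score, counts divided by a size factor per mouse. All of them were whole multiples of the value of 1 read (tolerance 0.002), which gave the depth. Counting error covers reads only, and p-values measure the spread between single mice.

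The groups were compared in limma 3.58.1 (R 4.3.3, trended variance) after a pseudocount of 1 and a log2 transformation, which shrinks fold changes of low genes. Benjamini-Hochberg adjustment ran over 19170 genes, and calls needed an adjusted p under 0.1. Pairs were tested with 100000 permutations. Lengths and sequences came from GENCODE M21, which matched 19117 genes (99.7%) by identifier. The procedure was tested on simulated data. The genes and lists were chosen with earlier results of these data known. From each list the text names the genes past the threshold, the 3 with the smallest p among those with a mean of at least 10 and the 2 most abundant. For each of the 5 genes it names the 5 most like it. Langerhans cell and other markers are given as sums, and 5 of the immediate early genes past the threshold are named.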

Additional observations from a re-analysis of the deposited data

Results flagged for a closer look

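In each group the highest and lowest mouse was compared with the others for the genes named above, over 62 groups of 5 or 6 mice with Dixon's criterion, which chance meets in about 1 of 20 groups. S100a7a was at 2816 normalized counts in PBS 5, while the other PBS mice lay between 1926 and 2078. Cela1 was at 1.82 normalized counts in PBS 4 and at 0 in the other PBS mice. Grhl3 was at 5329 in DT 1, below the other DT mice at 6331 to 6720.3. Atf3, an immediate early gene, was at 731 in PBS 4, while the other PBS mice lay between 107 and 169.73. None of Defb14, Defb1, Defb3, Defb4 and Slpi had such a mouse. The cause of these 4 values was not tested.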

How the results depend on the processing

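For each of the 5 genes the log2 fold change stayed positive and on the same side of the threshold under 9 settings: pseudocounts of 0.5 and 5, a filter at a mean of 10, TMM scaling, quantile normalization, array weights, a replicate block on mouse numbers, and, chosen after seeing the data, a removal of length and GC trends and a replicate block on library names. Its range was 0.29 to 0.42 for Defb14, 0.20 to 0.30 for Slpi, 0.14 to 0.23 for Defb1, 0.08 to 0.22 for Defb4 and 0.006 to 0.31 for Defb3. With each mouse left out in turn it ran from 0.29 to 0.43 for Defb14, 0.16 to 0.36 for Slpi, 0.11 to 0.24 for Defb1, 0.06 to 0.18 for Defb4 and 0.006 to 0.39 for Defb3, and adjusted p in limma ran from 0.0951 to 0.655 for Slpi and from 0.085 to 0.671 for Defb1. The number of genes called moved from 107 to 189 with array weights, to 35 with the replicate block on mouse numbers, to 0 with the block on library names (1404 at an unadjusted p under 0.05 in limma) and to 27 to 259 with each mouse left out. With length and GC trends removed it was 403, of which 340 were higher and 63 lower, against 60 and 47. Same-numbered mice correlated between -0.233 and 0.324 and only PBS 5 matched its own number best, and nothing in the labels says that the numbers pair the mice. The title of PBS 5 carries the library number 6, so by library name its partner is DT 6 and not DT 5, and their correlation was -0.0477. DT 6 has no partner in the block on mouse numbers and DT 5 none in that on library names, and neither block changed a call among the 5 genes. The pairs past the threshold numbered 3 to 7 with a mouse left out, and Slpi moved to 42369.8 per kilobase with its longest transcript. Wfdc5 ranged from -0.0071 to 0.12 and Wfdc18 from -0.12 to 0.24 with a mouse left out, and Wfdc18 was -0.1239 with the block on library names. Tlr2 ranged from -0.18 to 0.0226 in the same way and was 0.0049 with quantile normalization. The cause of these changes was not tested. Tests on recovered reads with edgeR and DESeq2 were planned and not run. Reads could be recovered, but the columns hold no number for 36244 genes and were handled as normalized values, tested on a log scale. At 31 to 123 reads per mouse, counting error was largest for Defb3 of the 5 genes. At 11.9% of its level it was still well below the 43.7% variation of Defb3 over the mice.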

Other observations

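Markers of other cells that the epithelium could hold had summed levels far below those of the keratinocyte markers in both groups. Of the genes of these lists 0 passed the threshold in limma. At an unadjusted p under 0.05 were 2, 1 of macrophages and 1 of fibroblasts and endothelium, against 11.5% of all genes. The 7 macrophage markers summed to 268 to 531 normalized counts in the PBS mice and 279 to 394 in the DT mice. The 6 T cell markers with values summed to 20.0 to 83.5 and 24.2 to 44.0. The 8 markers of fibroblasts and endothelium summed to 1299 to 1519 and 1217 to 1660.1, and the 8 of skeletal muscle to 48.6 to 92.3 and 51.0 to 103. The 4 markers of junctional epithelium with values summed to 990.1 to 2943 and 648 to 2201. Single genes carried 2 of these sums, with 90.8% from Odam in junctional epithelium and 85.6% from Dcn in fibroblasts and endothelium.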
